A study of Mus musculus with 2 samples.

Results

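The genes described here are 41 components of the BMP, TGF-beta and activin pathway, chosen by name: 13 ligand genes, 11 receptor and co-receptor genes, 7 Smad genes, 4 Id genes, 4 genes of extracellular antagonists and a pseudoreceptor, and 2 genes of latent TGF-beta binding proteins. All 41 were found among the 29383 gene symbols of the deposited count table, each in a single row. RNA was sequenced from the heart apex of mouse embryos at stage E12.5, in 1 library for each of 2 genotypes, with tissue of 8 hearts pooled per library. The mutant carried an Nkx2-5 Cre driver and 2 floxed copies of Ezh2, the gene of the histone H3 lysine 27 methyltransferase of Polycomb repressive complex 2. The heterozygous control carried the same driver and 1 floxed copy, so that it is not a wild type. Cre from Nkx2-5 acts where that cardiac gene has been active, and cells outside that lineage keep their Ezh2. The question is how transcript levels differ where neither Ezh2 copy is protected from the recombinase.

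Ligands of this family are secreted dimers that bring together type I and type II receptor kinases on the cell surface. The type I receptor then phosphorylates receptor-regulated Smads, which enter the nucleus with Smad4, and BMP signals raise transcription of Id genes and of the inhibitory Smads, Smad6 and Smad7. In the embryonic heart, Bmp10 sustains growth of trabecular myocardium, Bmp2 and Bmp4 act in the atrioventricular canal and outflow tract, and Tgfb2 acts in the endocardial cushions.

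With 1 library per genotype there is no spread between replicates, so no p-value of the genotype was computed. Library totals were 14122579 reads in the mutant and 13944617 in the heterozygote. Levels are given as CPM, counts per 1e6 reads after TMM scaling, which removes overall differences between libraries with a trimmed mean of log ratios. Each ratio is mutant over heterozygote, with a 95% exact Poisson interval that models counting error and no variation between hearts or libraries. Even for counting error it may be too narrow. The reads carry no molecular identifiers, and several may stem from a single molecule. Ezh2 had 319 reads in the library labelled mutant and 493 in the heterozygote, a ratio of 0.601 (0.521 to 0.694). The labels name the cells cardiomyocytes, and the 10 cardiomyocyte markers summed to 45802 CPM in the mutant and 45551 CPM in the heterozygote. Single markers differed in both directions, with 6 of 10 higher in the mutant. Myh6, for example, had a ratio of 1.40 (1.38 to 1.42) and Myl2 one of 0.858 (0.852 to 0.863). All 10 endothelial and endocardial markers, 8 epicardial, 10 cushion and fibroblast, 7 mural, 7 leukocyte and 7 erythroid markers also had reads in both libraries, so both held other cell types too. In such tissue, fewer cells of a type and less RNA per cell cannot be told apart.

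The upstream sequences of BMP ligand genes are shown first because these ligands differed from each other most, in both directions. Of the 41 genes, 27 had an entry in the RefSeq promoter table (build GRCm38.p6), and for Bmp4, Bmp6, Bmp5 and Bmp10 the 250 bases before the annotated start are printed 5′ to 3′ on the gene's own strand, with CpG dinucleotides in capitals. Polycomb repressive complex 2 is known to occupy CpG-rich promoters, which is why CpGs are marked. The windows are chr14:46390670-46390919 on the minus strand for Bmp4, and chr13:38345466-38345715, chr9:75775115-75775364 and chr6:87428744-87428993 on the plus strand for Bmp6, Bmp5 and Bmp10.
Bmp4: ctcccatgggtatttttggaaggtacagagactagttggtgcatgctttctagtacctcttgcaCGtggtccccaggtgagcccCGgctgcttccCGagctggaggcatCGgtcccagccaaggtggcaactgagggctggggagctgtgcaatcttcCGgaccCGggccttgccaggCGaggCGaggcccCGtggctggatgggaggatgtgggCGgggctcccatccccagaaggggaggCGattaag
Bmp6: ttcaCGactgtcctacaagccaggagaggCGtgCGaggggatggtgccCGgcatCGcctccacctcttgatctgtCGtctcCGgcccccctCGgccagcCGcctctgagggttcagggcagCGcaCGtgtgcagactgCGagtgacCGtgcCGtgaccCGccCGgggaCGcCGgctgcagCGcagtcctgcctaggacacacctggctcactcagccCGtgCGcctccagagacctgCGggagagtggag
Bmp5: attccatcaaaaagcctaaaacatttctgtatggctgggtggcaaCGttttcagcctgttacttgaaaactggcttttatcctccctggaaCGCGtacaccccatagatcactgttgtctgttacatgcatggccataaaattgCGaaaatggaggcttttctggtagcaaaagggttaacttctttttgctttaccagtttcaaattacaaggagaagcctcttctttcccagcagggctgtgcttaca
Bmp10: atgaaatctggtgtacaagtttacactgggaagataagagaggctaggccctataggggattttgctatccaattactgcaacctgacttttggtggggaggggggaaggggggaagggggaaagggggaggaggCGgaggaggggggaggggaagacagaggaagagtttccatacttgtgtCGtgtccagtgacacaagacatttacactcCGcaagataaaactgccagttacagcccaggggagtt
CpG dinucleotides numbered 11 for Bmp4, 22 for Bmp6, 4 for Bmp5 and 3 for Bmp10. Bmp6, with the most CpGs of the 4, was lower in the mutant, as were Bmp5 and Bmp10, with the fewest. Bmp4, between them, was higher. Bmp5 had a log2 ratio of only -0.02 once a trend with GC content, described further on, was removed. The other BMP ligand genes, Bmp2, Bmp7, Gdf5 and Gdf6, had no window, and a relation of CpG count to ratio was not tested. Over the 33 windows of the 27 genes the median was 21 CpGs, with a range of 1 to 49, against a median of 6 over all 32851 windows in the table. The Smad-binding letters CAGAC, searched on both strands, were in 15 of the 33 windows (45.5%) and in 42.2% of all windows, and among the 4 printed windows in those of Bmp6 and Bmp5. The letters GGCGCC read the same on both strands and are known from BMP-responsive promoters. They were in 7 of the 33 (21.2%) and in 9.59% of all windows, and in none of the 4 printed. These letters hold a CpG themselves, and the member windows had the higher median of CpGs, so the 2 shares are not matched for composition. Some members, such as Smad5 and Bmpr1b, also gave several windows. A match describes these letters in this window and shows no binding.

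Differences across the pathway were small, and the ligands spanned the widest range. Of the 41 genes, 38 reached 1 CPM in at least 1 library. At least 1.5-fold apart, on the scale log2((mutant CPM + 1)/(heterozygote CPM + 1)), were 1 gene higher in the mutant, Bmp4, and 1 lower, Bmp6. Over all 16185 genes that reached 1 CPM, 3.45% passed this threshold upward and 1.88% downward, so the pathway's counts were near the background. No member was 2-fold apart in either direction, against 0.605% of all genes higher and 0.173% lower. On this scale Bmp6 was 1.53-fold lower and Bmp4 1.51-fold higher, just inside the threshold, and the nearest outside it was Ltbp3 at 1.38-fold. With total-count scaling, which uses CPM of each library's own total, Bmp4 was still past the threshold and Bmp6 was not, against 4.87% of all genes higher and 1.17% lower. With a pseudocount of 5 CPM in place of 1 CPM neither passed, and 0.748% of all genes were then higher and 0.309% lower.

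**Figure D1:**
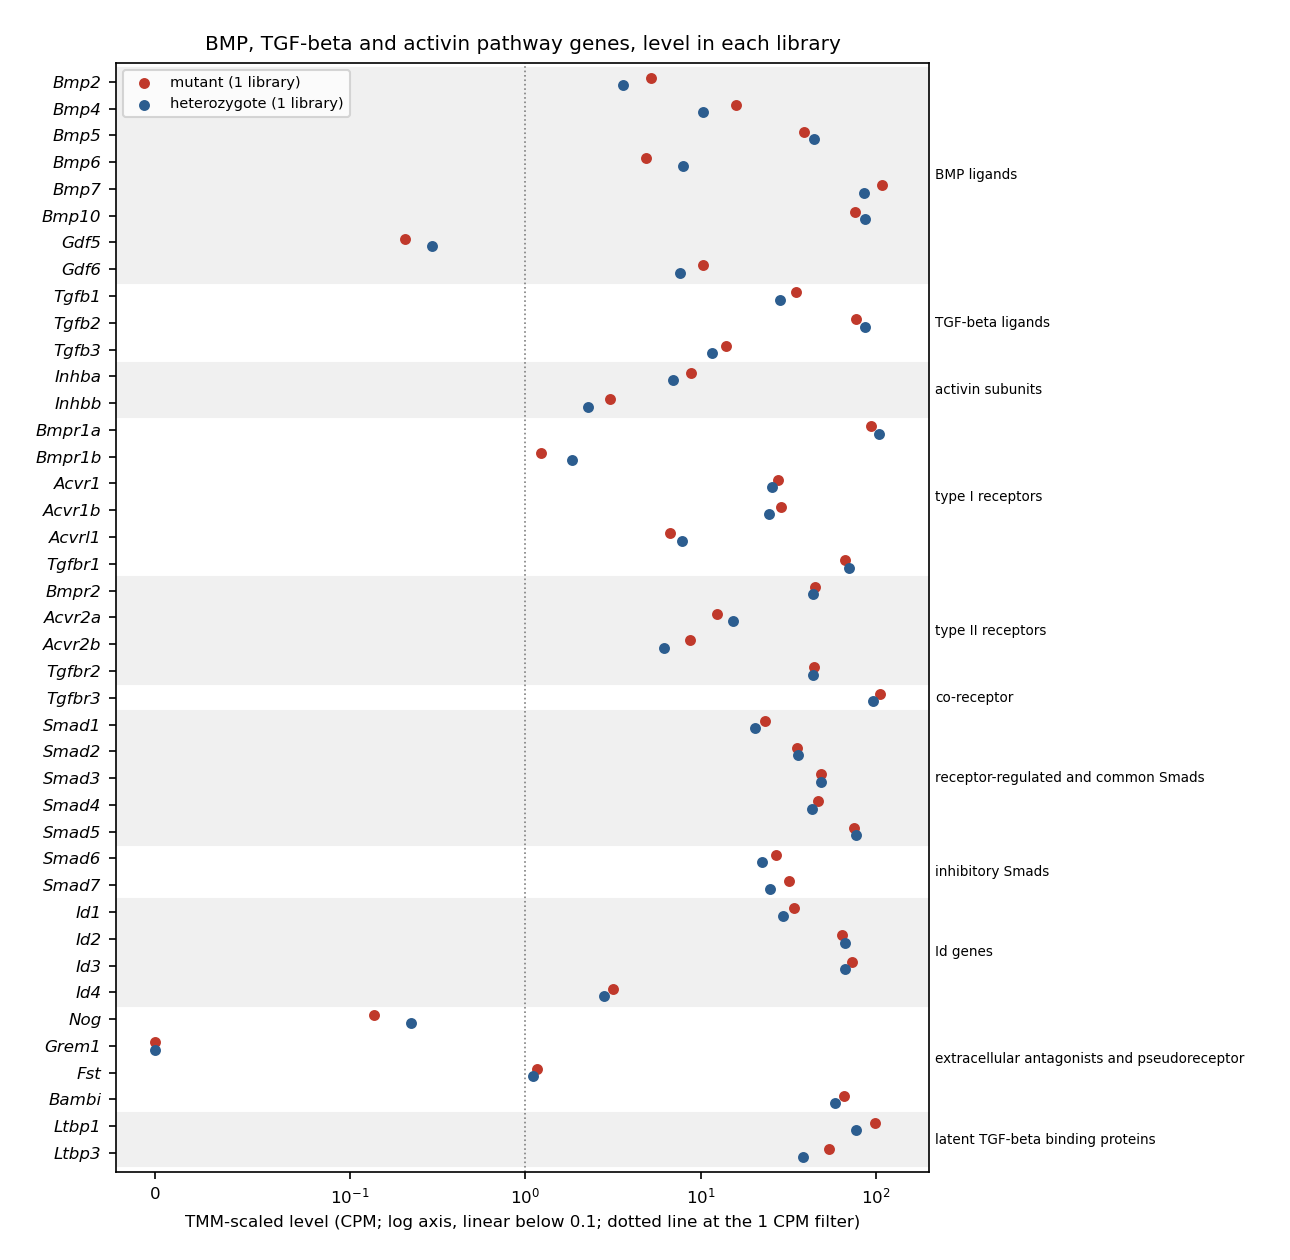
TMM-scaled level (CPM, log axis that is linear below 0.1) of each of the 41 genes in the mutant (red) and heterozygous (blue) library, ordered by role, with the 1 CPM filter as a dotted line. Most pairs of points lie close together, Bmp7 had the highest CPM in the mutant (108 CPM) and Bmpr1a in the heterozygote (105 CPM), and Gdf5, Nog and Grem1 stay below the filter.

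More members lay above than below a ratio of 1. Of the 38, 26 (68.4%) had a log2 ratio above 0, with a median of 0.13, while 48.8% of all tested genes did, with a median of -0.01. The counting interval lay above 1 for 13 members and below 1 for 6, against 17.4% and 19.1% of all tested genes. An interval narrows with the number of reads, so these shares depend on how deeply a gene was counted. Total-count scaling, which shifted the median of all genes to 0.07, put 20 members above 1 and 1, Bmp6, below, with 26.3% and 11.4% of all genes. The intervals of Bmp5, Bmp10, Tgfb2, Bmpr1a and Acvr2a, below 1 with TMM, then included 1, and those of Bmp2, Tgfb3, Inhba, Acvr1, Smad1, Smad4 and Id3 lay above it. The names in the following paragraphs use TMM scaling.

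**Figure D2:**
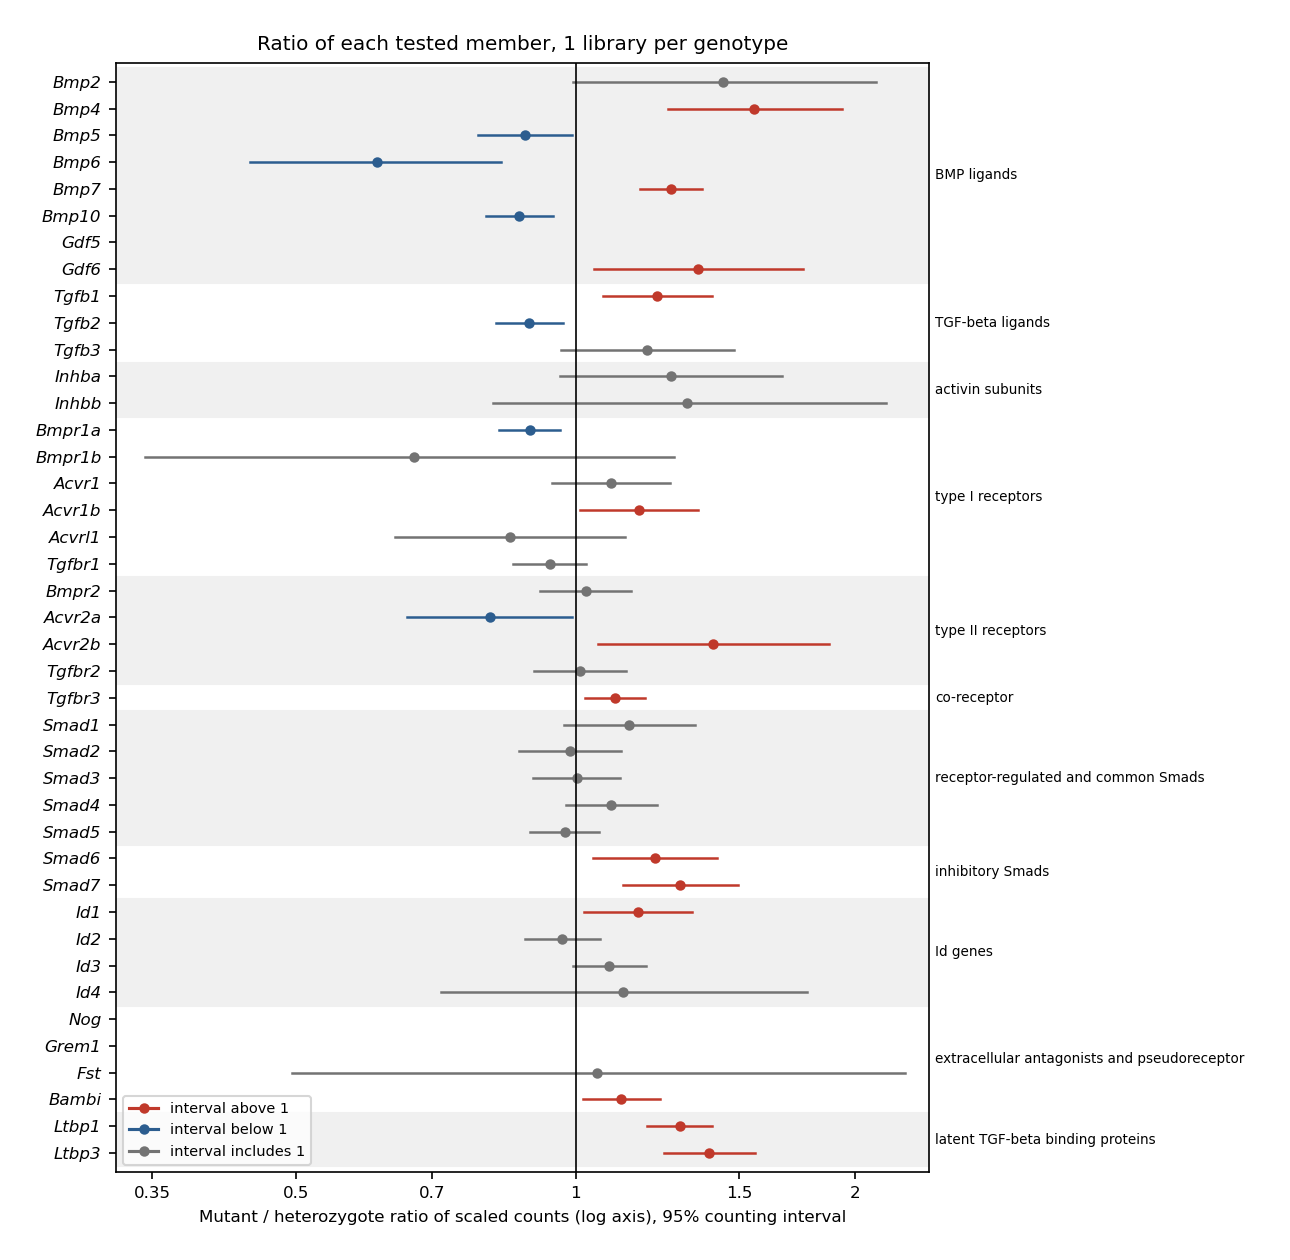
Ratio of scaled counts, mutant over heterozygote (log axis), for the 38 genes that reached 1 CPM, with 95% exact Poisson intervals of counting error. Red intervals lie above 1 (13 genes), blue below 1 (6 genes), and grey ones include 1 (19 genes); both inhibitory Smads and both latent TGF-beta binding protein genes are red, and all 5 other Smads are grey.

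BMP ligand transcripts differed in sign. Bmp4, a ligand of outflow and limb mesenchyme (chromosome 14, 47003196 to 47010274 as the files give it), had 233 reads in the mutant and 139 in the heterozygote. Its level was 16.0 CPM in the mutant and 10.3 CPM in the heterozygote, a ratio of 1.56 (1.26 to 1.94). In the authors' deposited table, where folds are heterozygote over mutant and are not TMM-scaled, Bmp4 stood at 0.604. A predicted gene on the opposite strand shares 86 bases with the Bmp4 locus, and its own reads numbered 51 in the mutant and 36 in the heterozygote. Bmp6, which is known in endocardium and cushions (chromosome 13, 38437585 to 38591597), was lower, with 71 reads in the mutant and 108 in the heterozygote. Its ratio was 0.611 (0.446 to 0.832), and the authors' deposited table gives it a fold of 1.54.

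The other BMP ligands showed smaller differences of both signs. Bmp7, broadly expressed in myocardium, had 1573 reads in the mutant and 1155 in the heterozygote, at 108 CPM in the mutant and 85.4 CPM in the heterozygote, a difference of 0.34 on the log2 scale. Gdf6, a relative of the BMPs, had 150 reads in the mutant and 103 in the heterozygote, a ratio of 1.35 (1.05 to 1.76). Bmp10 had 1101 reads in the mutant and 1177 in the heterozygote, a ratio of 0.869 (0.800 to 0.944). Bmp5, a close relative of Bmp6 and Bmp7, had 568 reads in the mutant and 599 in the heterozygote, a ratio of 0.881 (0.784 to 0.990). Both ratios were below 1 under each of the 4 scalings tried, but with total-count scaling both intervals, 0.850 to 1.004 for Bmp10 and 0.833 to 1.05 for Bmp5, included 1. The atrioventricular canal ligand Bmp2 had only 76 reads in the mutant and 49 in the heterozygote. Its ratio of 1.44 was similar in size to that of Bmp4, but its interval of 0.993 to 2.11 includes 1. Gdf5, a joint ligand, had 3 reads in the mutant and 4 in the heterozygote, under the 1 CPM filter in both libraries.

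The share of each ligand among reads of all 8 BMP ligand genes does not depend on how libraries are scaled. Shares are not corrected for the trend with GC content described further on, and Bmp7 (55.3% GC) is richer in GC than Bmp10 (45.8%). Bmp7 took 41.7% of these reads in the mutant (Wilson 95% interval 40.1 to 43.2) and 34.6% in the heterozygote (33.0 to 36.3). Bmp10 took 29.2% in the mutant (27.7 to 30.6) and 35.3% in the heterozygote (33.7 to 36.9). Bmp7 was thus ahead of Bmp10 in the mutant by reads, while in the heterozygote their intervals overlapped. Per kilobase of transcript, Bmp7 had the larger share in both libraries, at 42.0% in the mutant and 35.9% in the heterozygote, and Bmp10 had 24.0% in the mutant and 29.9% in the heterozygote. Bmp4 made up 6.17% of BMP ligand reads in the mutant (5.45 to 6.99) and 4.17% in the heterozygote (3.54 to 4.90), and Bmp6 1.88% in the mutant (1.49 to 2.37) and 3.24% in the heterozygote (2.69 to 3.90).

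The 3 TGF-beta ligands also differed in sign. Tgfb1, the isoform of endothelium and blood cells, had 506 reads in the mutant and 384 in the heterozygote, a ratio of 1.22 (1.07 to 1.40). Tgfb2 had 1126 reads in the mutant and 1174 in the heterozygote, a ratio of 0.891 (0.821 to 0.968). Tgfb3 had 203 reads in the mutant and 158 in the heterozygote, with an interval of 0.965 to 1.48. A model on the opposite strand shares 5150 bases with the Tgfb3 locus, and its own reads numbered 273 in the mutant and 288 in the heterozygote. Tgfb2 remained the most counted isoform in both libraries, with 61.4% of TGF-beta ligand reads in the mutant (59.1 to 63.6) and 68.4% in the heterozygote (66.2 to 70.6). Tgfb1 took 27.6% in the mutant (25.6 to 29.7) and 22.4% in the heterozygote (20.5 to 24.4). The activin subunit genes Inhba (128 reads in the mutant, 94 in the heterozygote) and Inhbb (44 in the mutant, 31 in the heterozygote) had ratios of 1.27 and 1.32, and both intervals include 1.

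**Figure D3:**
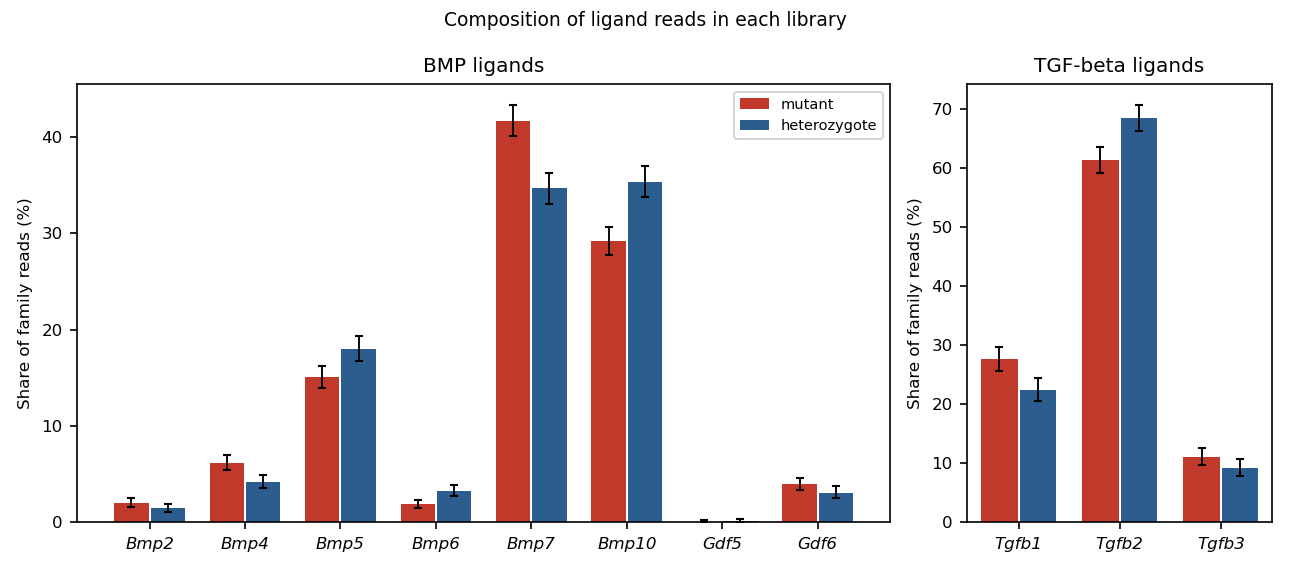
Share of reads (%) that each gene takes among the 8 BMP ligand genes (left) and the 3 TGF-beta ligand genes (right), mutant in red and heterozygote in blue, with Wilson 95% intervals of counting error as bars. The largest BMP ligand share is that of Bmp7 in the mutant (41.7%), and Tgfb2 leads the TGF-beta ligands in both libraries.

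Receptor transcripts differed in both directions, with no member 1.5-fold apart. The 11 receptor and co-receptor genes had a median log2 ratio of 0.02, with 6 above 0, and the 12 tested ligands one of 0.29, with 8 above 0. Bmpr1a, the main type I receptor for BMPs in heart muscle, had 1360 reads in the mutant and 1416 in the heterozygote, and was the most abundant receptor kinase in both, at 93.4 CPM in the mutant and 105 CPM in the heterozygote. Per kilobase it was first among the type I receptors in both libraries, and its ratio was 0.892 (0.828 to 0.962). Tgfbr1, the type I receptor for TGF-beta (964 reads in the mutant, 955 in the heterozygote), and Acvr1, a BMP type I receptor (403 in the mutant, 343 in the heterozygote), had intervals that include 1, as did Acvrl1, the endothelial type I receptor also called Alk1, with 97 reads in the mutant and 106 in the heterozygote. Acvr1b, the activin type I receptor, had 418 reads in the mutant and 332 in the heterozygote, a ratio of 1.17 (1.01 to 1.36). Bmpr1b was scarce, with 18 reads in the mutant and 25 in the heterozygote.

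The paired activin type II receptors had opposite signs. Acvr2b had 127 reads in the mutant and 84 in the heterozygote, a ratio of 1.40 (1.06 to 1.87). Acvr2a had 180 reads in the mutant and 207 in the heterozygote, a ratio of 0.808 (0.658 to 0.991), and a duplicate model of Acvr2a under another name holds the same reads. These receptors bind overlapping ligands. Their transcripts differ in GC content, at 54.4% for Acvr2b and 39.9% for Acvr2a. With a trend with GC content removed, described further on, the log2 ratio of Acvr2b was 0.34 (0.43 before). That of Acvr2a was then -0.16 (-0.29 before). The type II receptors for BMP and TGF-beta were nearly level: Bmpr2 had 44.9 CPM in the mutant and 43.8 CPM in the heterozygote, and Tgfbr2 44.0 CPM in the mutant and 43.5 CPM in the heterozygote. The co-receptor gene Tgfbr3, or betaglycan, which presents TGF-beta2 to its receptors, had 1537 reads in the mutant and 1296 in the heterozygote, a ratio of 1.10 (1.02 to 1.19).

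Among the Smads, the intervals of both inhibitory genes lay above 1 with TMM scaling, and those of the 5 signal-carrying genes included 1. With total-count scaling those of Smad1 (1.03 to 1.43) and Smad4 (1.04 to 1.30) lay above 1 as well. Smad7, which blocks activated type I receptors, had 467 reads in the mutant and 335 in the heterozygote, a ratio of 1.30 (1.12 to 1.49). Smad6, an inhibitor mainly of BMP signals, had 394 reads in the mutant and 301 in the heterozygote, a ratio of 1.22 (1.04 to 1.42). Together they took 20.5% of Smad reads in the mutant (19.3 to 21.8) and 17.3% in the heterozygote (16.1 to 18.6), and these intervals do not overlap. Both transcripts are GC-rich, and their log2 ratios of 0.27 for Smad6 and 0.36 for Smad7 were 0.04 and 0.18 once a trend with GC content, described further on, was removed. The BMP-regulated Smad1 (339 reads in the mutant, 276 in the heterozygote) and Smad5 (1091 in the mutant, 1042 in the heterozygote) had ratios of 1.14 and 0.973. The TGF-beta-regulated Smad2 had 517 reads in the mutant and 487 in the heterozygote, and Smad3 707 in the mutant and 655 in the heterozygote. The common partner Smad4 had 683 reads in the mutant and 581 in the heterozygote, a ratio of 1.09 (0.976 to 1.22). Smad2 and Smad5 lay below 1 with TMM scaling and above it with total-count scaling.

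Id genes, which encode inhibitors of basic helix-loop-helix factors and respond to BMP signals, included the 3 members with the highest levels per length. Per kilobase of the longest transcript, Id3 stood at 57.0 CPM in the mutant and 52.4 CPM in the heterozygote, Id2 at 32.6 CPM in the mutant and 33.7 CPM in the heterozygote, and Id1 at 29.5 CPM in the mutant and 25.3 CPM in the heterozygote. The order Id3, Id2, Id1, Bmp7 led the members in both libraries. Id1 had 499 reads in the mutant and 397 in the heterozygote, a ratio of 1.17 (1.02 to 1.34). Id3 had 1060 reads in the mutant and 906 in the heterozygote, with an interval of 0.994 to 1.19. Id2 had 935 reads in the mutant and 898 in the heterozygote, and the scarcer Id4 had 46 in the mutant and 38 in the heterozygote. The intervals of Id2, Id3 and Id4 include 1.

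Both genes of latent binding proteins, which tether TGF-beta in the matrix, were higher in the mutant. Ltbp3 had 781 reads in the mutant and 521 in the heterozygote, at 53.6 CPM in the mutant and 38.5 CPM in the heterozygote, a ratio of 1.39 (1.25 to 1.56). A shorter model inside Ltbp3, with 604 reads in the mutant and 426 in the heterozygote, counts some of the same reads. Ltbp1 had 1440 reads in the mutant and 1034 in the heterozygote, at 98.9 CPM in the mutant and 76.4 CPM in the heterozygote, a ratio of 1.29 (1.19 to 1.40). With the GC trend removed their log2 ratios were 0.23 for Ltbp3 and 0.24 for Ltbp1. Bambi, a decoy receptor that lacks a kinase, had 953 reads in the mutant and 791 in the heterozygote, a ratio of 1.12 (1.02 to 1.23). The 3 secreted antagonists among the members had few reads in both genotypes. The activin antagonist gene Fst had 17 reads in the mutant and 15 in the heterozygote, the BMP antagonist gene Nog had 2 in the mutant and 3 in the heterozygote, and Grem1 had 0 in both, which allows up to 3 counts in each library.

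Log2 ratios followed the GC content of transcripts in these libraries, and this bears on several members. Across the 13238 tested genes with a reference transcript, the median log2 ratio was -0.18 in the 10% of genes with the least GC and 0.19 in the 10% with the most. All 38 tested members had a reference transcript. Across these 38, which share both libraries, Spearman's rho between log2 ratio and GC content was 0.49. Removing a quadratic trend on GC content and length left 26 of 38 members above 0, with a median of 0.12, against 48.0% of all genes. Bmp4 stayed at 0.60 (0.59 before) and Bmp6 at -0.80 (-0.61 before), and both remained past 1.5-fold, where 2.61% of genes were higher and 1.24% lower.

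Of the 38 tested members, 23 lay nearer to 0 after the trend was removed and 15 farther from it. Beside the inhibitory Smads, Ltbp3 had 0.23 after removal of the trend and 0.47 before, Ltbp1 0.24 after and 0.37 before, and Bmp7 0.21 after and 0.34 before. Among the members below 1, Bmp5 had -0.02 after and -0.18 before, and Bmpr1a -0.06 after and -0.16 before, both GC-poor. Bmp10 had -0.15 after and -0.20 before, and Tgfb2 -0.15 after and -0.16 before. Farther from 0 were, among others, Acvrl1 with -0.36 after and -0.21 before, Inhba with 0.39 after and 0.30 before, and Bambi with 0.23 after and 0.16 before. Id1 had 0.25 after and 0.22 before, and all 4 Id genes were then above 0, Id2 included, with 0.11 after and -0.05 before. Tgfbr1, Tgfbr2 and Smad3, whose intervals include 1, also changed sign.

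**Figure D4:**
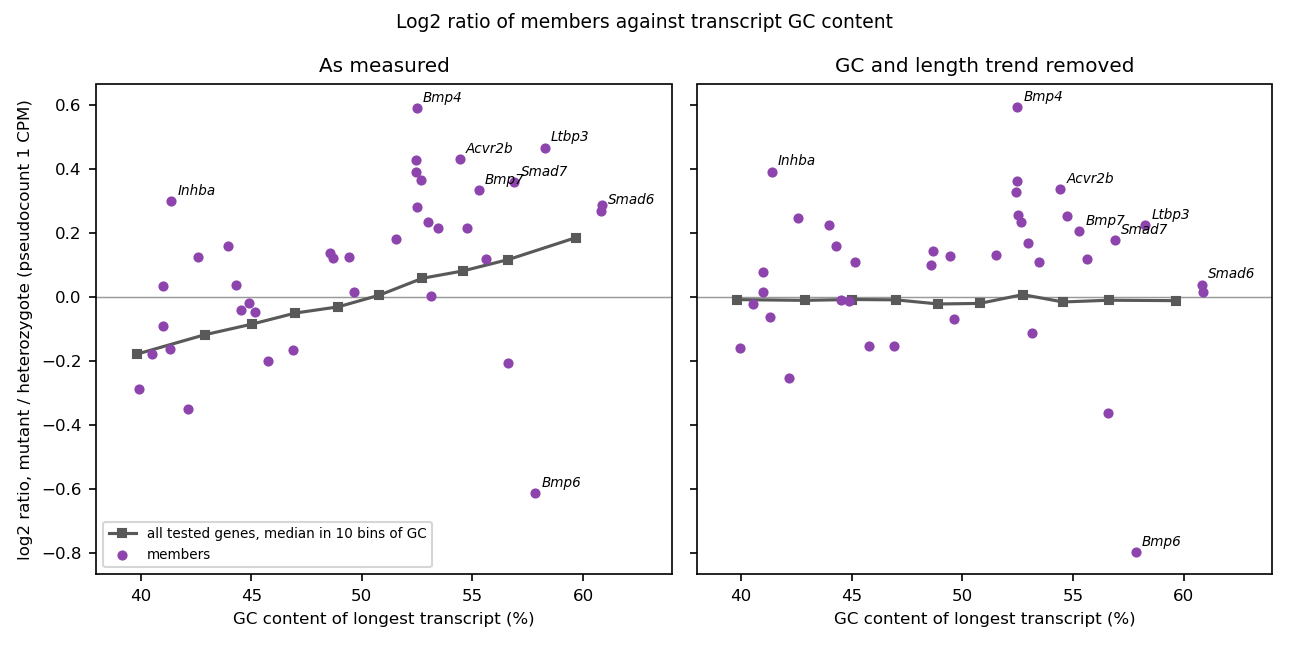
Log2 ratio (mutant over heterozygote, pseudocount 1 CPM) of the 38 tested members (purple) against the GC content (%) of the longest transcript, as measured (left) and with the GC and length trend removed (right); grey squares are medians of all tested genes in 10 equal bins of GC content. The grey line climbs to 0.19 at the GC-rich end on the left and is flat on the right, where Bmp4 (0.60) and Bmp6 (-0.80) still lie farthest out.

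Further pathway genes, 86 by name, were compared in the same way. Of the 66 that reached 1 CPM, 51 (77.3%) had a log2 ratio above 0, against 48.8% of all tested genes, with a median of 0.16. Once the GC trend was removed, 39 (59.1%) were above 0, against 48.0% of all genes, and the median was 0.03. At least 1.5-fold higher were 6, and 2 were lower by that fold, against the 3.45% and 1.88% of all genes. With the GC trend removed, 5 of the 6 higher genes stayed past 1.5-fold and Furin did not, with a log2 ratio of 0.42. Neither lower gene stayed past it, with -0.44 for Dcn and -0.57 for Ctgf, while the scarce Bmp8b (21 reads in the mutant, 36 in the heterozygote) and Ltbp2 (9 in the mutant, 17 in the heterozygote) were then at least 1.5-fold lower. The 6 included 4 extracellular genes. Sost, a secreted inhibitor related to BMP antagonists, had 169 reads in the mutant and 90 in the heterozygote, a ratio of 1.74 (1.34 to 2.28). Dand5, a secreted Nodal antagonist, had 66 reads in the mutant and 32 in the heterozygote, and the BMP-binding Chrdl1 had 21 in the mutant and 7 in the heterozygote. Furin, the convertase that cleaves TGF-beta and BMP precursors, had 2286 reads in the mutant and 1393 in the heterozygote, a ratio of 1.52 (1.43 to 1.63). The remaining higher genes were BMP-responsive transcription factor genes, Msx2 with 101 reads in the mutant and 24 in the heterozygote, and Tbx2 with 103 in the mutant and 35 in the heterozygote. The lower genes were Dcn, which encodes the TGF-beta-binding proteoglycan decorin (593 reads in the mutant, 862 in the heterozygote; ratio 0.639, 0.575 to 0.711), and the TGF-beta-responsive Ctgf (766 reads in the mutant, 1097 in the heterozygote; ratio 0.649, 0.591 to 0.712).

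All listed markers of the atrioventricular canal, outflow tract and second heart field that reached 1 CPM were higher in the mutant. The 6 atrioventricular canal markers, which include Msx2 and Tbx2 themselves, summed to 113 CPM in the mutant and 69.7 CPM in the heterozygote, with 6 of 6 above 0. Tbx5 alone made up 66.4 CPM of this sum in the mutant and 50.3 CPM in the heterozygote, so the sum mostly follows that 1 gene. Of 7 outflow tract and second heart field markers, 6 were above 0, with sums of 47.4 CPM in the mutant and 22.4 CPM in the heterozygote, and Tbx1 was at 0 in both. Markers of endothelium and endocardium, where Tgfb1, Acvrl1 and Bmp6 are known to be expressed, summed to 1020 CPM in the mutant and 1053 CPM in the heterozygote, with 4 of 10 above 0. Cushion and fibroblast markers, Dcn among them, summed to 1321 CPM in the mutant and 1345 CPM in the heterozygote, with 5 of 10 above 0. Epicardial markers summed to 237 CPM in the mutant and 232 CPM in the heterozygote, with 4 of 8 above 0. Mural markers summed to 293 CPM in the mutant and 300.3 CPM in the heterozygote. Abcc9 alone made up 137 CPM of this sum in the mutant and 160 CPM in the heterozygote. Only 2 of 7 mural markers were above 0. Rgs5 had 7 reads in the mutant and 48 in the heterozygote, Kcnj8 42 in the mutant and 74 in the heterozygote, and Myh11 13 in the mutant and 25 in the heterozygote. Leukocyte markers summed to 33.0 CPM in the mutant and 36.2 CPM in the heterozygote, with 3 of 7 above 0. Erythroid markers summed to 3409 CPM in the mutant and 4283 CPM in the heterozygote, with 2 of the 6 that reached 1 CPM above 0. The part of these cell types and regions in the differences was not tested. A different share of a region in the tissue and a different RNA level per cell cannot be told apart here.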

How the data were processed

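Transcripts were sequenced from 1 library per genotype, each from the apex of 8 pooled E12.5 hearts, from total RNA and with a library kit that keeps whole transcripts, per the labels' protocols. The authors deposited whole-number read counts per gene model and CPM of each library's own total, per the file headers. They also deposited a fold, the ratio of heterozygote over mutant CPM, and a p-value whose test is not named, per the file headers; the p-value was not used. Aligner, strand use and build are each not given in the sources used here. Positions are the files' own, with 1 added to the start. The table of the series and those of single samples had 0 rows that differed.

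Rows of 1 symbol were summed. Counts were scaled with TMM in edgeR 4.0.16 under R 4.3.3 (factors 1.03 for the mutant, 0.970 for the heterozygote). Log2 ratios used a pseudocount of 1 CPM and genes that reached 1 CPM in a library; intervals are exact conditional Poisson (scipy 1.17.1). Steps were tested on simulated data. Transcript GC and length were taken from GENCODE M21, longest transcript per symbol or unique RefSeq synonym, found for 81.8% of tested genes; the quadratic trend was fitted where the mean reached 5 CPM. Alternatives were DESeq2 1.42.0, upper-quartile and total-count scaling, other pseudocounts and filters, and this trend. Described in full are members at least 1.5-fold apart, those whose interval excludes 1 and the highest of each role; of the other pathway genes, those at least 1.5-fold apart; of 87 listed, 1 was not matched. Sums of markers use all list members found. The members, lists and rules were chosen with earlier results of these data known. Among members, 7 overlap other gene models, and without strand such reads cannot be told apart.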

Additional observations from a re-analysis of the deposited data

How the results depend on the processing

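With 1 library per genotype no replicate could be left out. No paired analysis was possible because each genotype has 1 library. Under total-count scaling, 0 members were at least 1.5-fold lower (1 with TMM), and counting intervals, an alternative chosen after seeing the data, lay above 1 for 20 members (13 with TMM) and below 1 for 1 (6 with TMM); this scaling shifts every log2 ratio upward. With a pseudocount of 5 CPM, 0 members were at least 1.5-fold higher and 0 lower, since a larger pseudocount draws ratios toward 1. The median of the tested members ranged from 0.11 (pseudocount of 5 CPM) to 0.21 (total-count scaling). DESeq2 size factors, upper-quartile scaling, a pseudocount of 0.1 CPM, no filter and a mean of at least 5 CPM changed the sign of 0 tested members; total-count scaling changed that of 3 (Smad2, Smad5, Id2) and removal of the GC trend that of 4 (Tgfbr1, Tgfbr2, Smad3, Id2). At this depth, members with few reads, such as Bmp2, Inhbb, Bmpr1b, Fst and Id4, have wide intervals, and differences smaller than these are within counting error. Whether larger differences exceed the variation between hearts or libraries cannot be told from 1 library per genotype.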
